A study of Mus musculus with 6 samples.

Results

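Translation factors are the proteins that bring the initiator tRNA, the mRNA and both ribosomal subunits together, move the ribosome along the coding sequence and free the finished chain at the stop codon. Initiation in mammals starts with eIF2, which delivers the initiator methionyl-tRNA to the small subunit, and with eIF4F, which binds the mRNA cap, while eIF3 holds these complexes together on the small subunit. Phosphorylation of eIF2 by stress-activated kinases blocks its recycling by eIF2B and lowers initiation in most cells, and 4E-binding proteins restrain the cap-binding protein when mTOR signaling is low.

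The genes described here encode the translation initiation, elongation and release factors other than most eIF3 subunits: every row of the deposited gene matrix whose symbol starts with Eif1, Eif2, Eif4, Eif5, Eif6, Eef1 or Eef2, together with Eif3b, Eif3g, Eif3i, Eif3j1, Eif3j2, Etf1, Gspt1, Abce1, Pabpc1, Denr, Mcts1, Edf1, Paip1 and Paip2. This rule named 65 of 24499 gene rows and used no measured value, but it was chosen with earlier results of these data known. Messenger RNA was sequenced from YFP+ induced germinal center B cells (iGCBs) in 3 Eif3e cKO and 3 control samples. iGCBs are naive splenic B cells grown for 3 days on 40LB feeder cells, fibroblasts that carry CD40L and BAFF and had received 120 Gy of radiation, with 1 ng/mL IL-4.

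The cKO mice carried Eif3e fl/fl, Cγ1Cre and the Rosa26-YFP LSL reporter, on a C57BL/6J background. The controls are labelled only as control. They too were sorted as YFP+ cells, which takes both Cre and the reporter, and the study describes such controls as Cγ1Cre Rosa26-YFP LSL mice. Cre is switched on in activated B cells when the γ1 constant region is transcribed, and the reporter marks cells in which it has acted. The age of the mice was not given in the sources used here. The labels number the samples as repeats 1 to 3 in each genotype. The study calls them biological replicates.

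Library totals ranged from 39079582 to 45504570 estimated counts, and 13296 genes passed the filter on low counts and were tested. Eif3e, the deleted gene, was measured at 173, 149.8 and 152 CPM (counts per 1000000 counts of scaled library size) in cKO libraries and at 424, 401 and 392 in controls, which left the cKO mean at 39.0% of the control mean (log2 fold change -1.36, SE 0.066, edgeR adjusted P = 6.71e-07). B cell markers summed to between 4464 and 4620 CPM in cKO and between 4331 and 4687 in control libraries, and T cell markers to at most 0.33 and 0.354 CPM. Of the germinal center B cell markers, 4 of 6 were lower and 1 higher in cKO, and of the plasma cell markers 3 of 5 were lower and 2 higher, with a summed plasma cell level of 646 to 788 CPM in cKO against 831 to 852 in control. Fibroblast markers of the feeder summed to 101.5 to 127 CPM in cKO and 78.9 to 147 in control, 1 of the 8 tested was higher, and 2 of the 10 were at 0 in every library. Myeloid markers summed to 4.08 to 6.06 CPM in cKO and 1.22 to 2.45 in control. Of these, Adgre1 was higher (4.62 ± 0.95 against 1.18 ± 0.74 CPM), Itgam was not called, and Lyz2, Csf1r and Cd14 were too low to be tested, Cd14 at 0 in every library. The part of these cell type differences in the results below was not tested, and in bulk RNA fewer cells of a type and less RNA per cell cannot be told apart. Xist and Y-linked transcripts showed that the sexes were mixed, with cKO library 2 and control libraries 1 and 2 XX and the other 3 libraries XY.

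Translation factor genes were more often higher than lower in cKO iGCBs. Of 65 members 63 were tested, 33 were higher and 9 lower at an adjusted P under 0.05, and 21 did not pass. The shares of members called were 52.4% higher and 14.3% lower, while over all tested genes 24.1% were higher and 24.5% lower. The median log2 fold change of the tested members was 0.18 (CPM scale), beside -0.0040 over all tested genes, and 16 of the 33 higher members rose by 0.4 or less on the log2 scale. With a fold change over 1.5 required as well, 8 members (12.7%) were higher and 4 (6.35%) lower, and the corresponding shares of all tested genes were 10.4% and 10.6%. Libraries of the 2 genotypes did not overlap for 43 of the 63 tested members (68.3%), against 58.7% of all tested genes. Of the 42 members called, 41 had no overlap, and Eif4g3 was the exception. With 3 libraries a group, a small adjusted P largely selects for such separation, so this count is not further support. All 42 kept their direction when XX libraries were compared only with XX libraries and XY libraries only with XY libraries. For the 41 without overlap this outcome was fixed in advance, and each comparison rests on a lone library for 1 genotype. Of the 42, 33 kept their call whichever library was left out. The other 9, Edf1, Eef1g, Eif2d, Eif4e, Eif4e2, Eif4ebp2, Eif4enif1, Eif4g3 and Paip2, all changed by less than 0.3 on the log2 scale. Of these 9 calls, 4, 8 and 3 were lost without cKO library 1, 2 or 3 and 6, 4 and 5 without control library 1, 2 or 3, with adjusted P values up to 0.174 (Edf1 without cKO library 2). Eef1a2, which encodes the muscle and neuron form of the elongation factor eEF1A, was at 0.20 CPM or less, and Eif4e1b, an oocyte relative of the cap-binding protein, was at 0 in all 6 libraries, which allows at most 0.0661 to 0.0763 CPM (3 counts, counting error only).

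**Figure D1:**
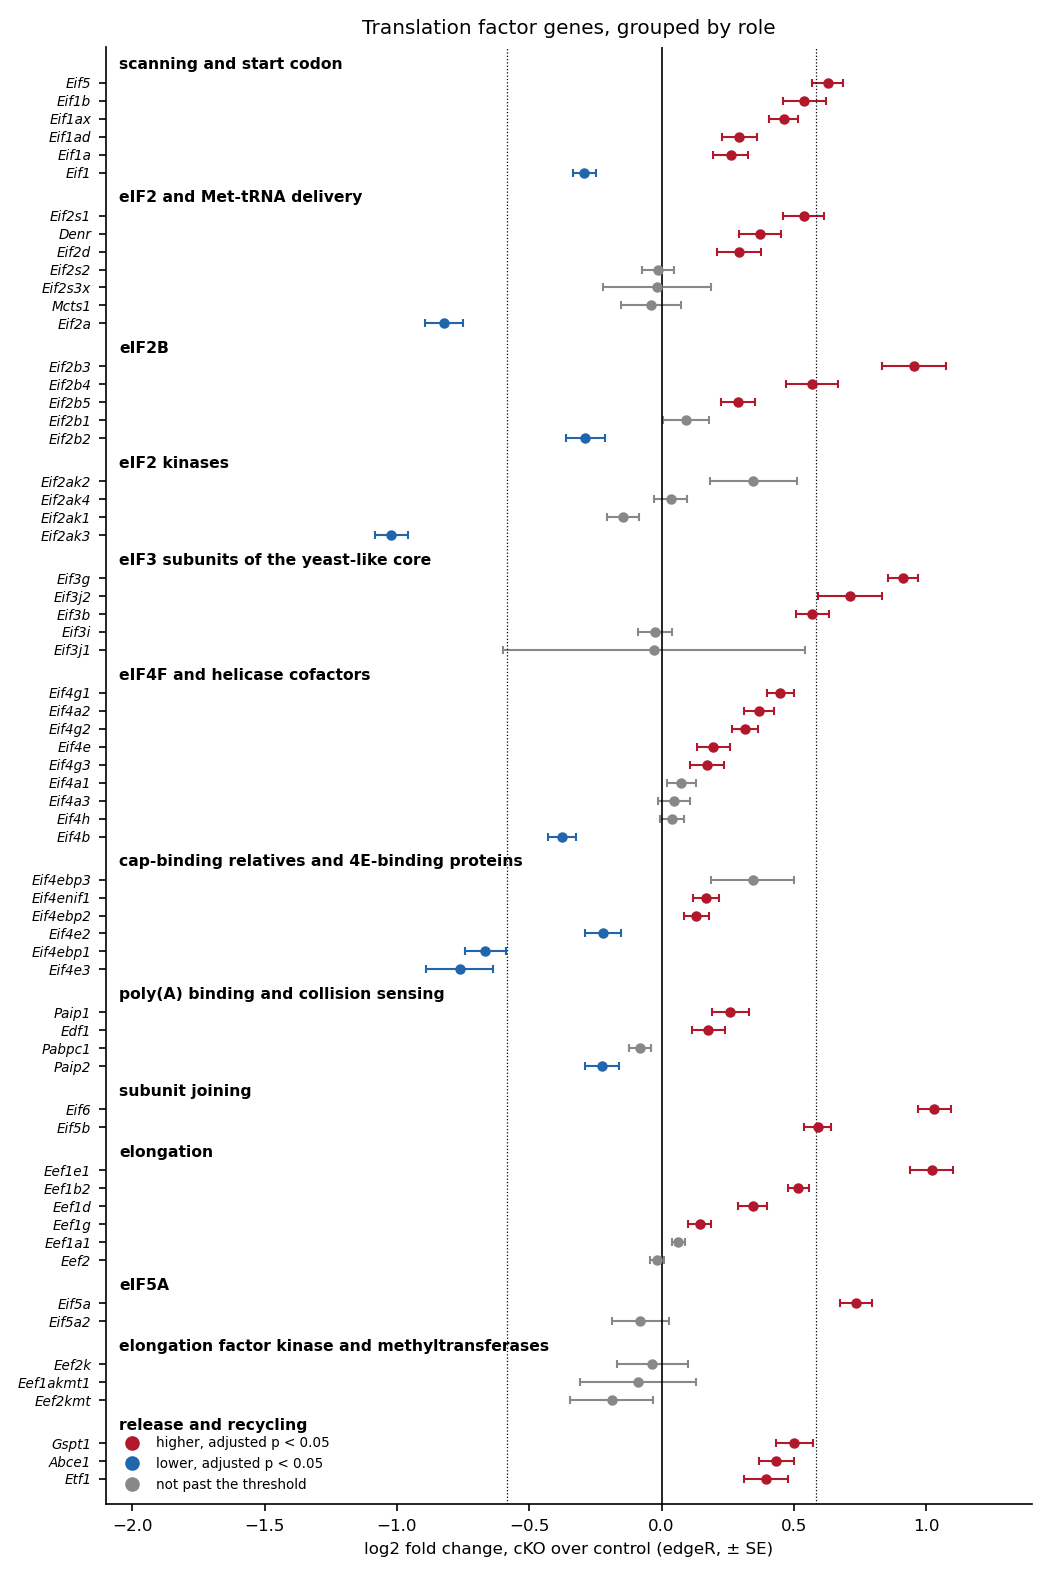
Log2 fold change (cKO over control, x axis) with its standard error for 62 tested translation factor genes, grouped by role, with dotted lines at 1.5-fold and Eif2s3y left out because it followed sex. Red points (higher) outnumber blue ones (lower), and Eif2ak3, Eif2a, Eif4e3 and Eif4ebp1 lie beyond the left dotted line.

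The factors differed widely in level. On a scale corrected for transcript length (CPM per kilobase), Eef1a1, which carries aminoacyl-tRNA to the ribosome, stood at 8576 ± 155 in cKO and 8211 ± 210 in control (mean ± SD, n = 3 each). Eef2, the translocase that moves the ribosome to the next codon, stood at 2711 ± 62.2 and 2744 ± 12.5. Pabpc1, the cytoplasmic poly(A)-binding protein, stood at 918 ± 32.4 and 971 ± 44.8. None of these 3 genes passed the main test: the log2 fold changes were 0.06 for Eef1a1 (SE 0.025, edgeR adjusted P = 0.0575), -0.017 for Eef2 (SE 0.025, adjusted P = 0.605) and -0.081 for Pabpc1 (SE 0.043, adjusted P = 0.143). Eef1a1 was called higher under 6 other settings, namely DESeq2 size factors (adjusted P = 0.0472), total counts only (0.0310), at least 10 counts in every library (0.0244), robust empirical Bayes (0.0408) and without cKO library 3 (0.0482) or control library 1 (0.0250). Pabpc1 was called lower without control library 2 (log2 fold change -0.13, adjusted P = 0.0185). Together the 65 genes took 4.29% ± 0.075 of all counts in cKO and 3.98% ± 0.064 in control libraries (estimated counts per gene row, not corrected for length), and Eef1a1 with Eef2 alone took 2.38% ± 0.037 and 2.32% ± 0.040.

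**Figure D2:**
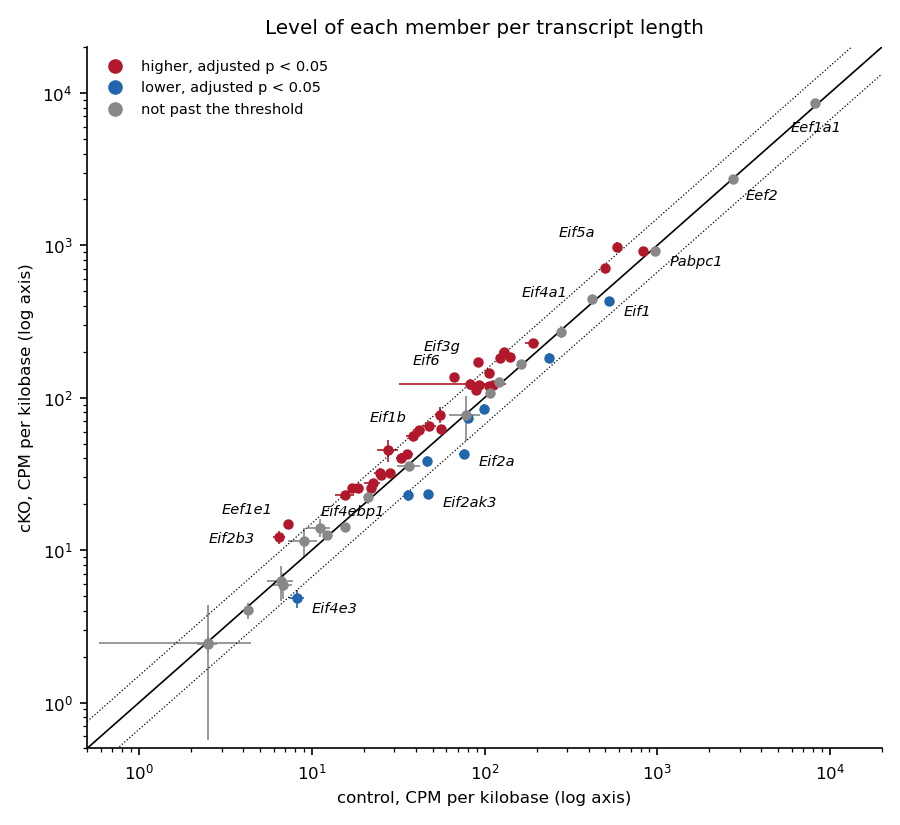
Mean level of each translation factor gene in control (x axis) and cKO libraries (y axis), in CPM per kilobase of transcript on log axes, with bars for the SD of 3 libraries, a solid line of equality and dotted lines at 1.5-fold. Eef1a1, Eef2 and Pabpc1 lie near the line of equality, while Eif5a, Eif6, Eif3g and Eef1e1 lie above the upper dotted line and Eif2ak3 below the lower one.

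Start codon selection is set by eIF1 and eIF1A, which keep the scanning ribosome open, and by eIF5, the activator of the eIF2 GTPase. All 6 genes of this group were called, 5 higher and 1 lower, and none had overlapping libraries. These counts, and those of the groups that follow, stand beside 24.1% of all tested genes higher, 24.5% lower and 58.7% without overlap. Eif5 was measured at 814, 839 and 786 CPM in cKO and at 545, 482 and 550.0 CPM in control libraries. Every cKO library lay above every control library, a 1.55-fold rise (log2 fold change 0.63, SE 0.058, edgeR adjusted P = 1.74e-05). Eif1ax, the X-linked eIF1A gene, rose by 0.46 (SE 0.054), Eif1ad by 0.29 (SE 0.066) and Eif1a by 0.26 (SE 0.066) on the log2 scale. Eif1ad was placed in this group for this report, and a role of its product in scanning was not tested. The pair of eIF1 genes moved in opposite directions. Eif1 stood at 560.0, 576 and 573 CPM in cKO and 714, 686 and 691 in control libraries and was 1.22-fold lower (log2 fold change -0.29, SE 0.043, adjusted P = 0.000313). Its paralog Eif1b stood at 66.6, 64.0 and 58.8 CPM against 46.8, 39.7 and 43.9 and was 1.45-fold higher (log2 fold change 0.54, SE 0.081, adjusted P = 0.000361). Per transcript length, Eif1b made up 12.4% ± 0.80 of the sum of both genes in cKO and 7.37% ± 0.44 in control, without overlap. The sum itself was lower, with 492 ± 4.95 against 569 ± 14.4 CPM per kilobase, and both comparisons gave an exact permutation P of 0.1, the smallest that 3 samples against 3 allow. Eif1 shares 14.5% of its 31-base words with Emd, and the shared part was not separated here.

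eIF2 has an α, a β and a γ subunit, encoded by Eif2s1, Eif2s2 and, on the sex chromosomes, Eif2s3x and Eif2s3y, and only the first of these genes was called. Eif2s1, whose product carries the serine that stress kinases phosphorylate, stood at 199, 199 and 175.5 CPM in cKO against 137, 118 and 140.3 in control libraries (log2 fold change 0.54, SE 0.076, adjusted P = 0.000253). Eif2s2, the most abundant of the eIF2 group per length, stood at 285.5, 276 and 253 CPM against 283, 257.5 and 280.1, with overlapping libraries (log2 fold change -0.012, SE 0.061, adjusted P = 0.889).

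The γ subunit genes followed sex rather than genotype. Eif2s3y was at 91.7 and 82.7 CPM in cKO libraries 1 and 3 and at 88.9 in control library 3, and at 0 in the other 3 libraries. Eif2s3x stood at 241, 386 and 217.5 CPM in cKO libraries 1 to 3 and at 328, 309 and 217.5 in control libraries 1 to 3, highest in the XX libraries. Neither gene passed the main test, which has no sex term. Eif2s3y was called higher without control library 3, the lone XY control (adjusted P = 0.0130). Adding a sex term moved the log2 fold change of Eif2s3x from -0.017 (SE 0.20) to 0.18 with an adjusted P of 0.0634. Among XX libraries its log2 ratio of cKO to control was 0.28 and among XY libraries 0.075, each comparison resting on a lone library for one genotype. Summed per transcript length, both γ genes gave 116, 106 and 105 CPM per kilobase in cKO libraries and 89.9, 84.7 and 108 in control libraries. These sums overlapped, since the XY control library lay above 2 of the cKO libraries (exact permutation P = 0.3).

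Other routes of tRNA delivery split. Eif2a encodes eIF2A, a single-chain protein that can bind initiator tRNA without GTP and is distinct from the α subunit of eIF2. It stood at 105.5, 101 and 90.0 CPM in cKO and at 185, 163 and 175 CPM in control libraries, a 1.77-fold fall without overlap (log2 fold change -0.82, SE 0.072, adjusted P = 1.21e-05). Denr and Eif2d, both of which encode proteins that act in reinitiation and in removing tRNA from recycled small subunits, rose by 0.37 (SE 0.079) and 0.29 (SE 0.084) on the log2 scale. Mcts1, the partner of Denr, was not called (log2 fold change -0.041, SE 0.11).

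eIF2B is the exchange factor that reloads eIF2 with GTP, and its 5 subunit genes did not move together. Eif2b3, Eif2b4 and Eif2b5 were higher, Eif2b2 was lower and Eif2b1 was not called. Eif2b3, which encodes the γ subunit, stood at 19.5, 23.9 and 19.2 CPM in cKO and between 9.82 and 11.5 in control libraries, a 1.94-fold rise without overlap (log2 fold change 0.95, SE 0.12, adjusted P = 0.000125). Eif2b4, the δ subunit gene, rose by 0.57 (SE 0.099) and Eif2b5, which encodes the catalytic ε subunit, by 0.29 (SE 0.065). Eif2b2, the β subunit gene, stood at 57.7, 67.5 and 58.8 CPM against 71.1, 78.0 and 75.8 (log2 fold change -0.29, SE 0.073, adjusted P = 0.00825). Per length, Eif2b2 stood 7.21-fold above Eif2b3 in control and 3.13-fold above it in cKO (ratio of the group means).

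Of the 4 kinases that phosphorylate eIF2α, Eif2ak3 alone was called in the main test, and it showed the largest fall of any member. Eif2ak3 encodes PERK, the kinase of the endoplasmic reticulum that responds to misfolded proteins. Its libraries held 104, 96.0 and 107 CPM in cKO and 221, 200.3 and 203 CPM in control. The cKO libraries all lay at about the same level, well below every control library, which gave a 2.03-fold fall (log2 fold change -1.02, SE 0.062, adjusted P = 1.85e-06). Eif2ak1 (the heme-regulated kinase HRI) had a log2 fold change of -0.14 (SE 0.061, adjusted P = 0.0728), Eif2ak4 (GCN2, the sensor of uncharged tRNA) of 0.035 (SE 0.063, adjusted P = 0.677) and Eif2ak2 (PKR, the sensor of double-stranded RNA) of 0.35 (SE 0.17, adjusted P = 0.110). Eif2ak2 was called higher by DESeq2 (adjusted P = 0.0410), with a replicate block (0.00564) and without control library 3 (0.0249). Of the plasma cell markers, Jchain, Xbp1 and Prdm1 were lower and Sdc1 and Irf4 higher in the same libraries, and their part in the fall of Eif2ak3 was not tested. The promoter windows of Eif2ak3 and Eif2a, the largest decreases, are shown from RefSeq on GRCm38.p6, with lower case for the 250 bases before an annotated start and capitals for the 50 bases from it onward. The Eif2ak3 window lies at chr6:70844265-70844564 on the plus strand and the Eif2a window at chr3:58525571-58525870 on the plus strand.
Eif2ak3: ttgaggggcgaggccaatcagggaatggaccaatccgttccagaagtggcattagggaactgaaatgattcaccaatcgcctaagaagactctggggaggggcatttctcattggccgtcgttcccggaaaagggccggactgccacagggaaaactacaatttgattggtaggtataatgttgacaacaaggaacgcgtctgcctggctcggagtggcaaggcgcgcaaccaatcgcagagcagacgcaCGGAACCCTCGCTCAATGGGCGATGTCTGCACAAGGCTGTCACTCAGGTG
Eif2a: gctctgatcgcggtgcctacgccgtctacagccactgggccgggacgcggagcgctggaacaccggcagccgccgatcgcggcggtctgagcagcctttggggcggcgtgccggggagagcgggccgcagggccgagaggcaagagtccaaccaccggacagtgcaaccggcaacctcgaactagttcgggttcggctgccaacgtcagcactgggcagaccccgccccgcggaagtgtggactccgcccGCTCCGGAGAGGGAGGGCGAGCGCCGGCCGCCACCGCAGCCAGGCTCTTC

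**Figure D3:**
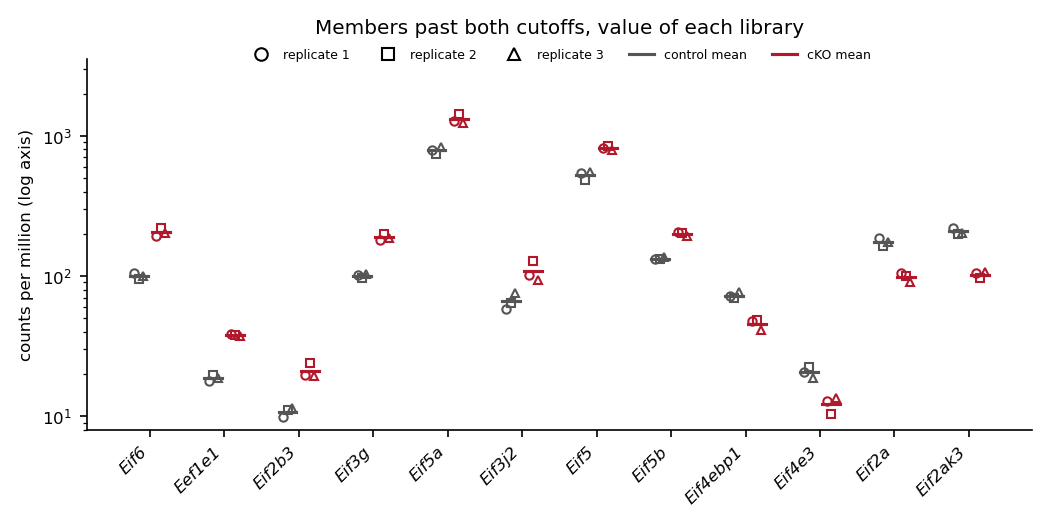
CPM (log axis) in each library for the 12 translation factor genes past both cutoffs, ordered by log2 fold change, with short lines at the means of 3 control (gray) and 3 cKO (red) libraries. For each of the 12 genes, which were chosen by a test on these same libraries, all cKO libraries lie to the same side of all control libraries.

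A separate list of partners of eIF2 phosphorylation had 3 of 8 tested genes higher and 2 lower, where 24.1% and 24.5% of all tested genes were called, so the lower share is near the background. The median log2 fold change of this list was -0.13. Impact, a GCN2 inhibitor, was 38.1 ± 6.51 CPM in control and 25.4 ± 2.47 in cKO (log2 fold change -0.58, SE 0.13, adjusted P = 0.00358). The regulatory subunits of the eIF2α phosphatase changed in opposite directions, the stress-inducible Ppp1r15a by 0.42 (SE 0.12) and the constitutive Ppp1r15b by -0.35 (SE 0.060). Nck2, an adaptor that binds eIF2, rose by 0.37 (SE 0.11). The calls of Nck2 and Ppp1r15a were lost without control library 2 (adjusted P = 0.0519 and 0.0658) and without 2 other libraries each. Without control library 2 this list had 1 gene higher and 3 lower.

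Of the 5 genes described here for eIF3 subunits that have yeast counterparts, 3 were higher and 2 were not called. Eif3j2 was among the higher genes and Eif3j1 among the uncalled ones, and both encode the j subunit. Eif3g, whose product has an RNA-binding domain and acts during scanning, stood at 179.8, 199.5 and 188 CPM in cKO and 101.5, 97.3 and 102 CPM in control libraries. The 1.88-fold rise (log2 fold change 0.91, SE 0.056, adjusted P = 1.92e-06) left no overlap between the genotypes. Eif3b, the scaffold to which the g and i subunits bind, rose by 0.57 (SE 0.062, adjusted P = 4.56e-05). Eif3i, the most abundant of the group per length, stood at 299, 335 and 282 CPM against 315, 304 and 312 and overlapped (log2 fold change -0.026, SE 0.064, adjusted P = 0.772). Eif3j2, one of a pair of genes for the loosely bound j subunit, stood at 102, 127 and 94.1 CPM in cKO and 57.7, 64.1 and 75.5 in control libraries (log2 fold change 0.71, SE 0.12, adjusted P = 0.000768). Eif3j1 ranged from 7.38 to 25.2 CPM in cKO and from 5.17 to 25.2 in control libraries, and was not called (SE 0.57). Since 94.9% of the 31-base words of Eif3j2 transcripts also occur in other genes, and 94.0% in Eif3j1, how counts were split between the pair is uncertain, and their sum is the safer value. The sum per length was 44.2, 54.9 and 44.2 CPM per kilobase in cKO and 28.9, 27.9 and 33.6 in control libraries, again without overlap (exact permutation P = 0.1). The other eIF3 subunits, taken as a list of 9, had 2 genes higher and 4 lower, Eif3e included. Eif3c (log2 fold change 0.32, SE 0.053), Eif3a (0.18, SE 0.050) and Eif3f (-0.17, SE 0.044) changed most after Eif3e, and Eif3a lost its call without cKO library 2 (adjusted P = 0.0505). The list had 1 gene higher and 2 lower without that library, where Eif3h (adjusted P = 0.0559) and Eif3m (0.0647) also lost their calls, and 2 and 2 without cKO library 3, without control library 1 or with a sex term. Eif3h lost its call whichever library was left out. The Eif3g window lies at chr9:20898541-20898840 on the minus strand, shown as above.
Eif3g: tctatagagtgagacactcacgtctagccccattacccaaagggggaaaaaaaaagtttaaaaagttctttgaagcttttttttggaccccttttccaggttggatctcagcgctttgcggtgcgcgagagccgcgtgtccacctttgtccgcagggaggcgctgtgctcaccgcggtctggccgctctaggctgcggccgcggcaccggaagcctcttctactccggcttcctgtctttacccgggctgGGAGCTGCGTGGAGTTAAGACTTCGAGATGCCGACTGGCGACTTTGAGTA

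Among the genes of eIF4F and its helicase cofactors, 5 of 9 were higher, 1 was lower and 3 were not called, and no change reached 1.5-fold. The higher genes were 3 without cKO library 2 or control library 3, where Eif4e and Eif4g3 lost their calls. Eif4g1, the scaffold that joins the cap-binding protein to the helicase, stood at 772, 828 and 759 CPM in cKO and 569, 561 and 598 in control libraries, and its log2 fold change of 0.45 (SE 0.050, adjusted P = 5.32e-05) was the largest of the group. Its relatives Eif4g2 and Eif4g3 rose by 0.32 (SE 0.049) and 0.17 (SE 0.065), and the cap-binding protein gene Eif4e by 0.19 (SE 0.062). Per length the control level of Eif4e spread widely (82.5 ± 50.7 CPM per kilobase), because 3369 of its counts in control library 3 were assigned to the 4991-base transcript NM_007917, which had 218 counts in cKO library 3 and 0 in the other 4 libraries. Eif4b, which encodes a cofactor that stimulates the helicase, stood at 749, 711 and 653 CPM against 917, 928 and 898, and was 1.30-fold lower (log2 fold change -0.38, SE 0.054, adjusted P = 0.000262). The other cofactor gene, Eif4h, was not called (log2 fold change 0.039, SE 0.046). Of the helicase genes, Eif4a1, the highest of the group per length, stood at 774, 845 and 741 CPM against 758, 718 and 766 and overlapped (log2 fold change 0.075, SE 0.056, adjusted P = 0.299), while Eif4a2 rose by 0.37 (SE 0.056, adjusted P = 0.000402). Eif4a2 accordingly made up 29.4% ± 0.68 of the sum of both per length in cKO and 25.1% ± 0.33 in control, without overlap (exact permutation P = 0.1). Eif4a3, a helicase of the exon junction complex rather than of eIF4F, had a log2 fold change of 0.047 (SE 0.060).

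Of the genes that bind, restrain or stand in for the cap-binding protein, 2 of 6 tested were higher and 3 lower. The higher genes were 0 without cKO library 2 or control library 3, where Eif4ebp2 and Eif4enif1 lost their calls. The lower genes were 2 without cKO library 1, cKO library 3 or control library 1, where Eif4e2 lost its call. With a sex term 1 gene was higher and 2 lower. Eif4e3, a cap-binding relative, stood at 12.7, 10.3 and 13.4 CPM in cKO and 20.7, 22.5 and 18.6 in control libraries (log2 fold change -0.76, SE 0.13, adjusted P = 0.000705). Eif4ebp1, which encodes 4E-BP1, the mTOR-controlled inhibitor of eIF4E, stood at 47.7, 48.1 and 41.0 CPM against 71.4, 69.1 and 76.6, a 1.59-fold fall (log2 fold change -0.67, SE 0.079, adjusted P = 7.52e-05). Both falls were without overlap, and Eif4e2, a translational repressor that binds the cap, fell by 0.22 (SE 0.068). Eif4enif1, whose product carries eIF4E into the nucleus, was higher by 0.17 (SE 0.050, adjusted P = 0.0174), and Eif4ebp3 was not called (log2 fold change 0.34, SE 0.16, adjusted P = 0.0953). Eif4ebp2, the most abundant 4E-binding protein gene per length, stood at 178, 171 and 169.7 CPM against 159, 158 and 157, and its rise of 0.13 on the log2 scale (SE 0.047, adjusted P = 0.0426) was lost when any library was left out. Eif4ebp1 made up 14.4% ± 1.12 of the summed level of the 3 binding protein genes per length in cKO and 22.9% ± 1.23 in control. The sum, 159 ± 3.60 against 158.5 ± 1.26 CPM per kilobase, differed by less than the spread between replicates (exact permutation P = 1).

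**Figure D4:**
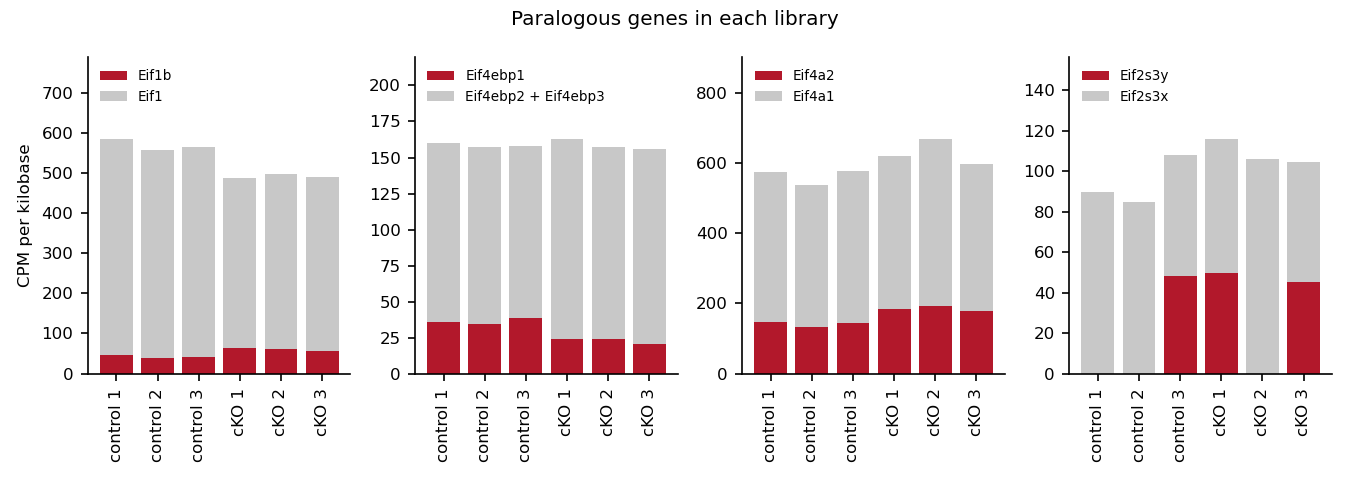
Stacked level of paralogous genes in each library (y axis, CPM per kilobase of transcript, axis from 0), for Eif1 with Eif1b, the 4E-binding protein genes, Eif4a1 with Eif4a2 and Eif2s3x with Eif2s3y. The share of Eif1b and Eif4a2 is larger and that of Eif4ebp1 smaller in the cKO libraries, and Eif2s3y is present in 1 control and 2 cKO libraries.

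The list of eIF4F regulators, 15 genes, had 6 higher and 4 lower (Mknk2, Gigyf1, Rps6kb2 and Pdcd4), and its median log2 fold change was 0.0027. The lower share is near the 24.5% of all tested genes that were lower, beside 24.1% higher. The lower genes were 2 without cKO library 2, where Rps6kb2 (adjusted P = 0.128) and Pdcd4 (0.0541) lost their calls, and 2 without control library 2, where the same genes did (0.0938 and 0.0536). The largest changes were in Pabpc4, a second poly(A)-binding protein gene (408.6 ± 12.4 CPM in control and 639 ± 34.8 in cKO, log2 fold change 0.64, SE 0.054), Dhx29, a helicase for structured leaders (0.63, SE 0.081), Mtor, the kinase itself (0.60, SE 0.062), and Rptor, its partner in complex 1 (0.50, SE 0.080).

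At the 3′ end of the mRNA the changes were small. Paip1, which stimulates translation through the poly(A)-binding protein, stood at 58.2, 61.5 and 61.5 CPM in cKO and 51.3, 53.2 and 46.8 in control libraries (log2 fold change 0.26, SE 0.070, adjusted P = 0.0109). Paip2, which inhibits it, fell by 0.23 (SE 0.064, adjusted P = 0.0138). Pabpc1 itself stood at 2663, 2607 and 2484 CPM against 2840, 2595 and 2769 and overlapped. Edf1, which encodes a sensor of collided ribosomes, rose by 0.18 (SE 0.062).

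Both genes of subunit joining were higher. Eif6 encodes the factor that holds the large subunit back from joining and takes part in its maturation. It stood at 194, 218 and 201 CPM in cKO and 105, 95.0 and 100.1 CPM in control libraries, a 2.04-fold rise (log2 fold change 1.03, SE 0.062, adjusted P = 1.85e-06). Eif5b, the GTPase that joins the subunits, stood at 207, 203 and 192 CPM against 131.5, 131.5 and 136, a 1.51-fold rise (log2 fold change 0.59, SE 0.051, adjusted P = 1.05e-05). Both genes had all cKO libraries above all control libraries.

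Among the elongation genes Eef1a1 and Eef2 were not called in the main test, Eef1a1 with the exceptions given above, and the genes of the exchange factor complex were higher. Eef1e1, whose product is a scaffold of the multi-tRNA synthetase complex, stood at 38.4, 37.6 and 37.3 CPM in cKO and 17.7, 19.6 and 18.6 in control libraries, a 2.03-fold rise (log2 fold change 1.02, SE 0.082, adjusted P = 7.20e-06). The subunits of eEF1B, which reloads eEF1A with GTP, all rose in the main test: Eef1b2 by 0.52 (SE 0.039), Eef1d by 0.34 (SE 0.055) and Eef1g by 0.14 (SE 0.043) on the log2 scale. The Eef1g call was lost without cKO library 1 (edgeR adjusted P = 0.0528), cKO library 2 (0.0800) or control library 1 (0.0622). Eef1b2 stood at 1371, 1384 and 1385 CPM in cKO and 980, 932 and 982 in control libraries. Eef1a1, the highest of the group per length, stood at 15600, 15490 and 15070 CPM against 15170, 14520 and 14510, and the libraries overlapped. Of its 31-base words 49.8% also occur in transcripts of other genes, so its counts may include reads of near-identical copies. The same limit holds for Eef1g, with 47.6% of its words shared. The Eef1e1 window lies at chr13:38658979-38659278 on the minus strand, shown as above.
Eef1e1: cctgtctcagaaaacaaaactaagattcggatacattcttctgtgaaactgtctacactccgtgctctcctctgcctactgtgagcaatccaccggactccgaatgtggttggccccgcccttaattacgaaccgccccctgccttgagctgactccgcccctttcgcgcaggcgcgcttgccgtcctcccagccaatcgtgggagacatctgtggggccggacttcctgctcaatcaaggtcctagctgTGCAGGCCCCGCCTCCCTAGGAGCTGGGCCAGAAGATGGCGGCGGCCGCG

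None of the 3 genes for the eEF2 kinase and the methyltransferases of eEF1A and eEF2 was called by edgeR, and each had overlapping libraries. Eef2kmt stood at 13.7, 14.9 and 10.1 CPM in cKO and 14.6, 12.8 and 16.6 in control libraries (log2 fold change -0.19, SE 0.16, adjusted P = 0.357), and Eef1akmt1 at 6.85, 4.02 and 5.59 CPM against 4.68, 6.31 and 6.56 (-0.090, SE 0.22, adjusted P = 0.766). Of 13 other genes for enzymes that modify translation factors, 3 were higher and 3 lower, shares near those over all tested genes (24.1% and 24.5%). Mettl13, an eEF1A methyltransferase, rose from 11.1 ± 0.53 CPM in control to 28.2 ± 1.54 in cKO (log2 fold change 1.34, SE 0.096, adjusted P = 3.94e-06). The diphthamide genes Dph5 and Dnajc24, which act on eEF2, rose by 0.91 (SE 0.10) and 0.58 (SE 0.15), while Dph1, Dph2, Dph3, Dph6 and Dph7 were not called (log2 fold changes of 0.05 to 0.30). N6amt1, the methyltransferase of release factors, fell by 0.54 (SE 0.12).

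eIF5A, which eases the ribosome over stretches such as consecutive prolines and is the only protein known to carry hypusine, had a change in transcript use. Eif5a stood at 1271, 1427 and 1237 CPM in cKO and 791, 746 and 826.5 in control libraries, a 1.66-fold rise (log2 fold change 0.73, SE 0.061, adjusted P = 8.91e-06). Its paralog Eif5a2 was not called (log2 fold change -0.081, SE 0.11) and made up less than 1% of their sum in every library. Most Eif5a counts were assigned to the transcript NM_181582, with 83.1% ± 2.00 in cKO and 89.2% ± 0.46 in control libraries. The transcript NM_001166589 was assigned 4277, 4583 and 2939 counts in cKO and 321, 984 and 1019 in control libraries, or 6.72% ± 0.98 against 2.42% ± 1.33 of the gene. Its use relative to the other transcripts of the gene was higher in cKO by 1.03 on the log2 scale (edgeR, adjusted P = 0.0112 over all transcripts), and Eif5a was the one member called when its transcript tests were combined by Simes' method (adjusted P = 0.0220), where 1.37% of 2990 tested genes were called. The Simes call was lost when any cKO library was left out, with a sex term (adjusted P = 0.0789), with a replicate block (0.128) and when at least 10 counts were required in every library. An F test at the gene level also called Eif4e2 (adjusted P = 0.0352), where NM_001039170 took 12.9% ± 2.92 of the counts in cKO and 22.7% ± 1.08 in control libraries. That transcript was not called by itself (relative log2 difference -0.57, edgeR adjusted P = 0.944). The share of all genes called by this F test is not given here. In the matched GENCODE M21 models, the Eif5a transcripts NM_181582 and NM_001166589 start at the same base (chr11:69921386, minus strand, GRCm38) and have the same coding exons. They differ by a 94-base exon at chr11:69920341-69920434 in the 5′ untranslated region. NM_001166591, which has a 30-base exon in the same intron instead, was assigned 1.81% ± 0.36 and 0.63% ± 0.50 of the counts and was not called (relative log2 difference 1.02, adjusted P = 0.675). The window at the shared start, chr11:69921337-69921636 on the minus strand, holds CACGTG, the E-box bound by MYC with MAX among other factors, in capitals.
Eif5a: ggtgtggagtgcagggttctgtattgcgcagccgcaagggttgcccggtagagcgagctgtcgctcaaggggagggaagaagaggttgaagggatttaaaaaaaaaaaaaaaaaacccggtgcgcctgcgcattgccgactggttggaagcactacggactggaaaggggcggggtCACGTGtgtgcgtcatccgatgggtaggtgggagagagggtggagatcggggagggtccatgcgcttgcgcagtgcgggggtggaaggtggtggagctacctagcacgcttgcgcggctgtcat

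**Figure D5:**
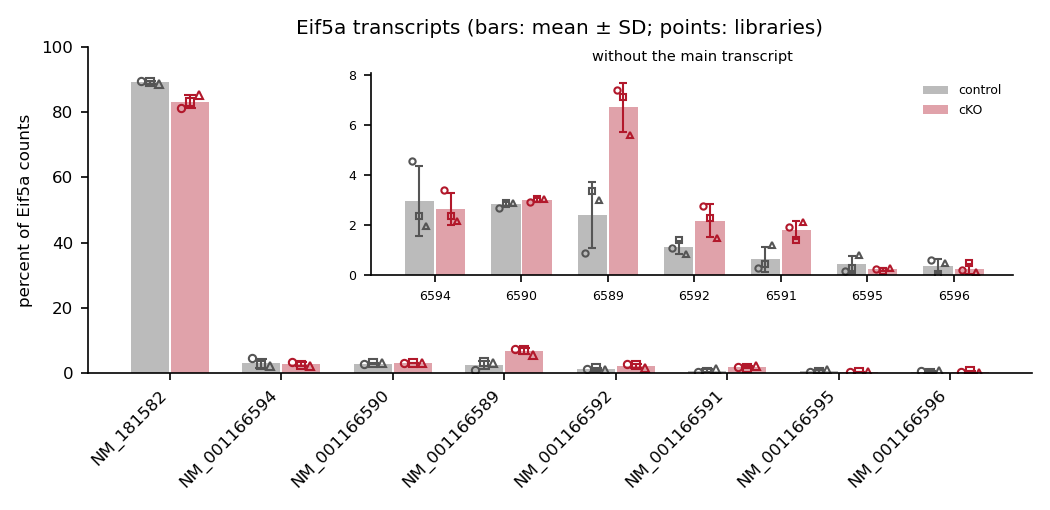
Percent of the Eif5a counts assigned to each of 8 transcripts (y axis, from 0) in 3 control (gray) and 3 cKO (red) libraries, as mean ± SD with points for the libraries; the inset enlarges the transcripts other than NM_181582, named by their last digits. NM_001166589 takes 6.72% of the counts in cKO and 2.42% in control libraries.

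All 3 release and recycling genes were higher, none by 1.5-fold. Gspt1, which encodes the release factor GTPase eRF3, stood at 261, 273 and 224 CPM in cKO and 179, 174 and 182 in control libraries (log2 fold change 0.50, SE 0.070, adjusted P = 0.000231). Etf1, which encodes eRF1, the protein that reads the stop codon, stood at 452, 478 and 424 CPM against 332, 308 and 389 (log2 fold change 0.40, SE 0.083, adjusted P = 0.00274). Abce1, the ATPase that splits the ribosome after release, rose by 0.43 (SE 0.066, adjusted P = 0.000402). Libraries overlapped for none of these 3 genes. Of 9 ribosome rescue genes, which act on stalled ribosomes, 5 were higher and 1 lower, beside 24.1% and 24.5% of all tested genes. The higher genes were 2 without cKO library 2, about the background share, where Hbs1l (adjusted P = 0.151), Pelo (0.0587) and Gspt2 lost their calls, and 3 without control library 1, without control library 2 or with a replicate block. Gspt2, an eRF3 paralog, was higher at a level of 1.30 ± 0.34 CPM in cKO against 0.48 ± 0.15 in control (log2 fold change 1.43, SE 0.44, adjusted P = 0.0205), a call lost without cKO library 2 (adjusted P = 0.092), control library 1 (0.0637) or control library 2 (0.0586). Gtpbp2, which acts in ribosome rescue, fell by 0.68 (SE 0.067), while its relative Gtpbp1 rose by 0.57 (SE 0.071) and Zfp598, the ubiquitin ligase that marks collided ribosomes, by 0.38 (SE 0.070).

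Promoter letters were compared for the 49 members with a RefSeq window of 300 bases. CACGTG, the same on both strands, was found in 9 of the 49 (18.4%), and in 8.09% of 27025 genes with a window and 11.7% of the 10100 of these that were tested. The ETS word CCGGAAGT, searched on both strands, was found in 7 members (14.3%), in 4.31% of all genes with a window and in 8.98% of the tested ones. TGATGCAA, the composite ATF4 word, was in no member window on either strand, and in 1.03% of all genes with a window and 0.812% of the tested ones. A C at the start followed by at least 4 pyrimidines was found in 2 members (4.08%), Eif2s3x and Paip1, and in 3.01% and 3.16% of genes. Genes with several windows had more chances to hold a word, and since windows of 1 gene can overlap, the same site can be found from more than 1 annotated start.

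CACGTG was in the windows of 4 of the 25 higher members, 0 of the 6 lower and 5 of the 17 that were tested and not called, and the window of Eif4g1 at chr16:20672477-20672776 on the plus strand holds it at 2 places, in capitals.
Eif4g1: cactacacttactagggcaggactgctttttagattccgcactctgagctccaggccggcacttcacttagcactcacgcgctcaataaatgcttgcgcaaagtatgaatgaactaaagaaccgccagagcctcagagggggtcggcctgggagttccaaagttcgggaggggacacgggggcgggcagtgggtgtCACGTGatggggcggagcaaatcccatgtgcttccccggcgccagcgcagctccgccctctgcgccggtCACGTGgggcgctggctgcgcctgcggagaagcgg

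CCGGAAGT was in 3 of the 25 higher, 2 of the 6 lower and 2 of the 17 uncalled members. It lay at the second base of the transcript in Eef1b2 and Eif2b4, both higher in cKO. In Eif2b2, which was lower, and in Eif2ak1, which was not called, it began at bases 17 and 16, in Eif2ak1 on the other strand. In Eif4e2, which was lower, it began at base 6, at base 3 or 23 bases before the start, depending on which of 3 annotated starts is counted from. In Eif5a, which was higher, it began 55 bases before 1 of its annotated starts, and in Eif5a2, which was not called, 164 and 36 bases before the start. The 10 bases before and 20 bases from the annotated start are shown for Eef1b2, Eif2b4, Eif2b2 and Eif2ak1 and for the X and Y copies of the eIF2γ gene, with the word, or the pyrimidine tract of Eif2s3x, in capitals as far as it falls in these 30 bases.
Eef1b2: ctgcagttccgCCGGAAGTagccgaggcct
Eif2b4: cccagtgcacgCCGGAAGTtgtagtccgct
Eif2b2: ccgagcggaagttgacctctctcggcCCGG
Eif2ak1: cgggacttccgttggctcttgtgttACTTC
Eif2s3x: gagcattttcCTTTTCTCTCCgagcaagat
Eif2s3y: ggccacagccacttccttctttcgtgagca
The windows of these genes, in the same order, lie at chr1:63176581-63176880 (plus strand), chr5:31193090-31193389 (minus), chr12:85219231-85219530 (plus), chr5:143817542-143817841 (plus), chrX:94212602-94212901 (minus) and chrY:1010345-1010644 (plus).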

How the data were processed

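Total poly(A) RNA of YFP+ day 3 iGCBs was measured in 6 libraries. The authors aligned reads with HISAT2 and quantified them with StringTie on mm10, per the labels, and the deposited estimated counts (1 table of genes, 1 of RefSeq transcripts) are whole and not normalized. Versions are not given in the sources used here. Gene counts were filtered (filterByExpr, minimum count 10), scaled by TMM and tested in edgeR 4.0.16 (R 4.3.3) by the quasi-likelihood test (cKO versus control, no covariates, Benjamini-Hochberg over 13296 genes), and transcript use by diffSpliceDGE. Cutoffs were an adjusted P of 0.05 and, where stated, 1.5-fold. DESeq2 1.42.0 and other settings were alternatives. The fits were tested on simulated data. The limit first set for that step was not met and was loosened after its outcome was seen, and a robust fit was added as an alternative. Levels per length sum, over transcripts, CPM (TMM) divided by the GENCODE M21 length in kilobases. Of the members 49 had RefSeq promoter windows. Eif4e3, Eef1akmt1, Eef1g, Eif6, Eif3i, Pabpc1, Eif3j2, Paip2, Eif2b3, Eif4g2, Eif1a, Eif4ebp3, Etf1, Eef1d, Eif4e1b and Eif4ebp1 had none. The members and lists were chosen with earlier results of these data known. Library values are given for members past both cutoffs, for the member of each role highest per length and the one with the largest log2 fold change, for transcript-use calls and for Eif2s3x and Eif2s3y, with others added where paralogs or subunits are compared. From each partner list up to 4 called genes with the largest changes were chosen. Others were named where the counts of a list or related genes are described. P values measure the spread between the samples, 3 per group.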

Additional observations from a re-analysis of the deposited data

How the results depend on the processing

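Counts of 33 higher and 9 lower members ranged from 30 to 34 and from 8 to 9 over the other settings (DESeq2, DESeq2 size factors, total counts only, no filter, a stricter filter, counts divided by 2, a sex term, a replicate block and, chosen after seeing the data, robust empirical Bayes), and from 26 to 32 and from 7 to 10 with 1 library left out. The counts past both cutoffs, 8 and 4, ranged from 6 to 12 and stayed at 4 with 1 library left out. Tested against 1.5-fold itself (glmTreat), they were 5 and 2, namely Eef1e1, Eif2b3, Eif3g, Eif5a and Eif6 higher and Eif2a and Eif2ak3 lower. The median log2 fold change of members ranged from 0.16 to 0.23 with 1 library left out. Partner list genes, 19 higher and 13 lower, ranged from 15 to 19 and from 8 to 11 with 1 library left out, the 8 without cKO library 2.

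Member genes with a change in transcript use, 1 (Eif5a), were 2 by the gene-level F test (Eif4e2 as well), 0 with at least 10 counts in every library, 0 with a replicate block, 0 with a sex term, and 0 to 1 with 1 library left out. The causes were not tested. Eif2s3x changed sign with a sex term (0.18) and ranged from -0.31 to 0.14 with 1 library left out. Eif3i changed sign with a sex term (0.0032) and ranged from -0.096 to 0.029, Eif2s2 from -0.062 to 0.037 and Eef1akmt1 from -0.28 to 0.092, and none of these genes was called in any of these fits.

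Same-numbered samples did not deviate together (r = 0.0085, 0.084 and 0.13 for numbers 1 to 3), so the numbers were not taken as pairs. The replicate block gave 31 higher and 9 lower members, and 8 and 4 past both cutoffs. A genotype by sex interaction was fitted in edgeR, and no other tool was run for it. The fit rested on a lone XX cKO library and a lone XY control library. It therefore cannot show whether the difference between genotypes depends on sex. The alternative without immunoglobulin genes was not run because the table analysed here has 0 such rows. With 3 samples a group, an exact permutation test of a single value cannot go below 0.1.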
